A study of Mus musculus with 23 samples.

Results

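The 8 genes described here are the D cyclins Ccnd1, Ccnd2 and Ccnd3, their kinases Cdk4 and Cdk6, and the Rb family genes Rb1, Rbl1 and Rbl2. They were chosen by gene name as the direct downstream targets of p16, and all 8 were found among the 37173 genes of the deposited count table. The study read poly-A RNA of both hippocampi of each of 23 mice, aged about 5 months, and made a separate library from every animal. The design crossed loss of p16 with an App knock-in. There were 6 wild-type mice (WT, libraries 1 to 6), 6 mice homozygous for a p16 knockout (P16<KO/KO>, here p16KO, libraries 7 to 12), 5 mice homozygous for the App knock-in (APP<NLGF/NLGF>, here AppNLGF, libraries 13 to 17) and 6 mice homozygous for both (APP<NLGF/NLGF>P16<KO/KO>, here AppNLGF_p16KO, libraries 18 to 23). The App knock-in places familial Alzheimer mutations and a humanised amyloid sequence in the mouse's own App gene. How the p16 allele was made, and which exons of Cdkn2a it removes, is not given in the sources used here.

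D cyclins bind Cdk4 or Cdk6, and the active pair phosphorylates the Rb family (the pocket proteins), which then releases E2F transcription factors and lets cells enter the DNA synthesis phase. The p16 protein binds Cdk4 and Cdk6 and keeps the D cyclins from activating them, so the 8 genes are the machinery on which it acts. In the adult hippocampus most neurons no longer divide, while progenitors of the dentate gyrus and several kinds of glia still can.

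The mRNA of these 8 genes differed little between the genotypes. Calls below use edgeR's quasi-likelihood test and adjust p by Benjamini-Hochberg over 19423 tested genes, the 8 members among them. A call means an adjusted p under 0.05, and fold changes are log2 values ± SE. Averaged over both App backgrounds, Cdk4 rose with p16 loss by a log2 fold change of 0.16 with an SE of 0.04 (adjusted p = 0.0206), or 11.7%. Cdk4 was the 1 member of 8 called there, in a contrast that called 13.0% of all genes (7.66% higher and 5.32% lower). A share of 1 in 8 is near that background and shows nothing particular to the 8 genes. In p16KO minus WT 0 of 8 were called against 0.309% of all genes, and in AppNLGF_p16KO minus AppNLGF 0 of 8 against 0.0309%. The App contrasts also called 0 of 8, against 0.319% of all genes in AppNLGF minus WT, 0.247% in AppNLGF_p16KO minus p16KO and 0.793% in the average App effect. The test of any difference among the 4 genotypes called 0 of 8 members and 3.53% of all genes. An unadjusted p under 0.05 was reached by 2 members in p16KO minus WT (15.8% of all genes), 2 in AppNLGF_p16KO minus AppNLGF (23.5%) and 3 in the average p16 effect (31.0%). It was reached by 0 members in AppNLGF minus WT (8.54% of all genes), 1 in AppNLGF_p16KO minus p16KO (7.89%), 1 in the average App effect (10.4%) and 2 in the test of any difference (25.0%). DESeq2 called 2 members in the average p16 effect, Cdk4 and Rb1, with 17.0% of all genes. In the test of any difference it called 1 (Cdk4), with 11.4% of all genes. It called 0 members in the other contrasts. Its shares of all genes were 2.42% in p16KO minus WT, 2.23% in AppNLGF_p16KO minus AppNLGF and 0.788% in AppNLGF minus WT. They were 0.52% in AppNLGF_p16KO minus p16KO, 1.47% in the average App effect and 0.00515% in the interaction. The contrasts share libraries (both simple contrasts with WT use the same 6 mice, and the averages reuse all), so each is given on its own.

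**Figure D1:**
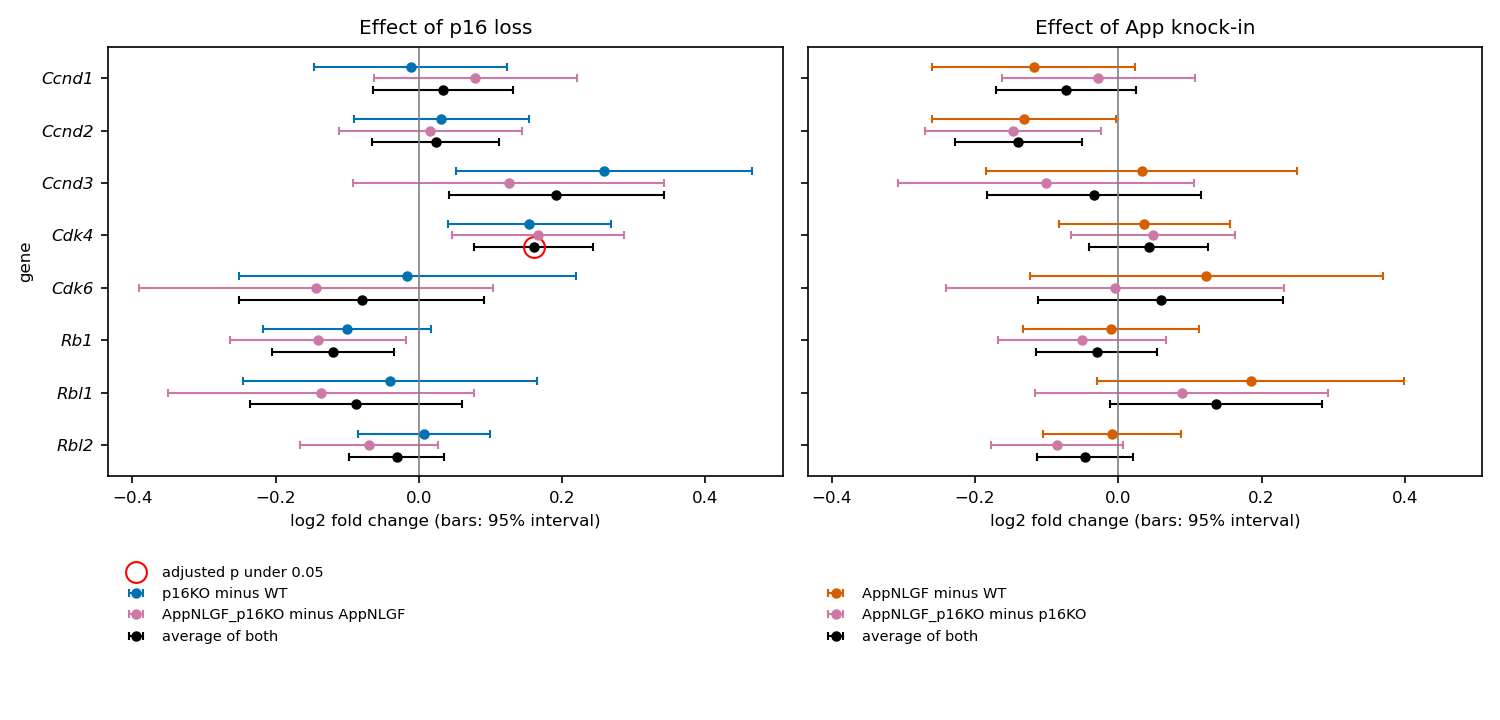
Log2 fold changes of the 8 genes (horizontal axis, bars are 95% intervals of the edgeR estimate) for p16 loss (left) and for the App knock-in (right), each in the 2 backgrounds and on average. The average p16 effect on Cdk4, 0.16, is the only estimate circled as called, and the estimates for Ccnd1 and Ccnd2 under p16 loss lie close to 0.

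Libraries held 40693561 to 61178839 counts, with a mitochondrial share of 2.79% to 3.99%. Library 21 (AppNLGF_p16KO) stood apart on the first 5 principal components, with a squared distance of 12.4 against a limit of 11.07, and p16KO library 7 lay just under it at 11. The number of components was set here at the bend of their standard deviations, and another number could move libraries across that limit. Trends with transcript length and GC content accounted for 0.6% to 16.9% of the variance of each library's deviations. Cdkn2a itself was near the limit of detection, with 6, 1, 3, 0, 5 and 2 reads in WT libraries 1 to 6 and 0, 1, 2, 1, 0 and 0 in p16KO libraries 7 to 12. In AppNLGF, libraries 13 to 17 gave 2, 6, 9, 4 and 4 reads. In AppNLGF_p16KO, libraries 18 to 23 gave 0, 6, 6, 2, 8 and 2. Neither difference passed a two-sided exact permutation test on counts per 1000000 counts, or CPM (p = 0.0563 for p16KO against WT over 924 splits, p = 0.580 for AppNLGF_p16KO against AppNLGF over 462 splits). Leaving out WT library 4, the WT library with no Cdkn2a read, gave an exact permutation p of 0.0173, and leaving out WT library 2 gave 0.0433. The Cdkn2a gene also encodes Arf from partly shared exons, so reads outside a deleted exon would not check the p16 label. Markers of dentate granule cells (Prox1, C1ql2, Dsp and Tdo2) summed to between 123.2 and 268.3 CPM, so hippocampal tissue was present in every library. Choroid plexus markers varied most, from 81.8 to 5462 CPM.

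Levels of different genes were set side by side only as CPM per kb of annotated exon. On that scale Cdk4 stood highest (14.9 ± 1.30, SD, n = 23), then Ccnd2 (13.4 ± 1.11) and Ccnd1 (12.5 ± 1.03). Rb1 (8.41 ± 0.650) and Rbl2 (8.14 ± 0.416) came next. Ccnd3 was lower (2.80 ± 0.427), and Rbl1 (0.473 ± 0.0565) and Cdk6 (0.365 ± 0.0508) were the lowest. The neighbours Cdk4 and Ccnd2, Ccnd2 and Ccnd1, Rb1 and Rbl2, and Rbl1 and Cdk6 lay within the spread of their values: Cdk4 was above Ccnd2 in 19 of 23 libraries, Ccnd2 above Ccnd1 in 20, Rb1 above Rbl2 in 17 and Rbl1 above Cdk6 in 21. The steps from Ccnd1 to Rb1, from Rbl2 to Ccnd3 and from Ccnd3 to Rbl1 held in 23 of 23 libraries. With the length of the longest transcript in place of all exons, Rbl2 (12.5) passed Rb1 (10.9) and Ccnd3 rose to 6.37 CPM per kb, while the other ranks stayed. Each of the 2 lowest genes has a close relative among the 5 highest.

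**Figure D2:**
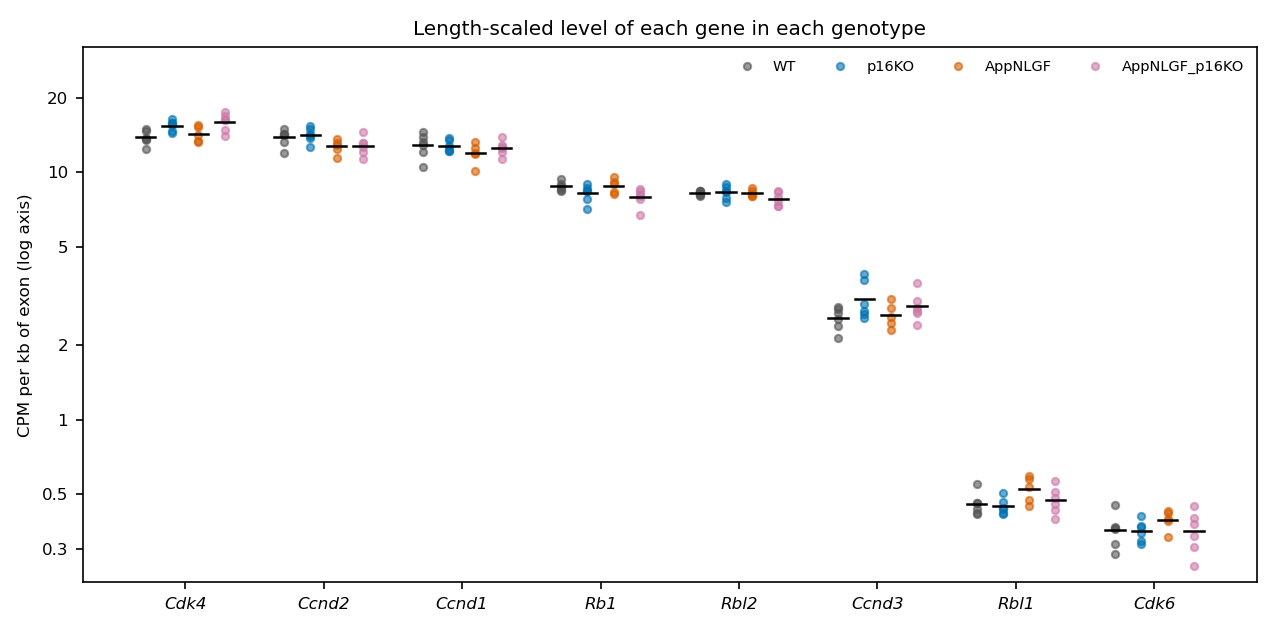
Level of each gene in CPM per kb of exon (vertical axis, log scale), 1 point per library, coloured by genotype, with black lines at group means. Cdk4, Ccnd2 and Ccnd1 lie between 10.1 and 17.4, Rb1 and Rbl2 below them, and Rbl1 and Cdk6 at most at 0.590.

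Within each family the length-scaled level was divided unequally. Of the D cyclin total, Ccnd2 made up 46.6%, Ccnd1 43.7% and Ccnd3 9.75%, as means over 23 libraries. Of the kinase total, Cdk4 made up 97.6% and Cdk6 2.41%, with Cdk6 between 1.45% and 3.54% in single libraries. Of the pocket protein total, Rb1 made up 49.4%, Rbl2 47.8% and Rbl1 2.79%. The shares depend on the length used: with the longest transcript in place of all exons, a choice made after seeing the data, Ccnd3 made up 15.1%, Ccnd1 37.6% and Ccnd2 47.3%. Cdk6 was then at 1.86%, Rbl1 at 2.45%, Rb1 at 45.4% and Rbl2 at 52.2%. These are levels in the whole tissue. In such bulk RNA a smaller number of expressing cells and less RNA per cell cannot be told apart.

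Ccnd1 (ENSMUSG00000070348) encodes cyclin D1, which many growth signals induce, and lies on the minus strand of chromosome 7 (GRCm38, 144929931 to 144939925). Its group means were 60.4 ± 6.57 CPM in WT, 60.1 ± 3.15 in p16KO, 56.2 ± 5.35 in AppNLGF and 59.0 ± 3.95 in AppNLGF_p16KO (SD, n = 6, 6, 5 and 6). All 4 groups overlapped. The average p16 effect was 0.03 on the log2 scale, with a 95% interval from -0.06 to 0.13. The average App effect was -0.07 ± 0.05 (adjusted p = 0.655). LTO1 overlaps Ccnd1 on the opposite strand.

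Ccnd2 (ENSMUSG00000000184; minus strand of chromosome 6, 127125162 to 127152193) encodes cyclin D2, the D cyclin on which adult neurogenesis in the dentate gyrus is known to depend. In WT it ran from 112.6 to 140.0 CPM with a median of 133.4, and in p16KO from 119.0 to 143.8 with a median of 133.1. The 5 AppNLGF libraries held 123.7, 107.3, 128.1, 121.6 and 117.1 CPM, and AppNLGF_p16KO ran from 106.5 to 136.2 with a median of 121.1. Both groups with the knock-in had the lower means, but each overlapped its control. All 5 AppNLGF libraries lay below the WT mean of 129.8 CPM, and 5 of 6 AppNLGF_p16KO libraries below the p16KO mean of 133.1. The average App effect was -0.14 ± 0.05 on the log2 scale (unadjusted p = 0.0049, adjusted p = 0.207), which did not pass, and the simple contrasts gave -0.13 ± 0.07 and -0.15 ± 0.06. Adjusted p stayed above the threshold under every alternative tried for these contrasts. For p16 loss the average was 0.02 ± 0.05.

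Ccnd3 (ENSMUSG00000034165; plus strand of chromosome 17, 47505051 to 47599691) encodes cyclin D3 and had the widest relative spread of the cyclins, with a within-group SD of 0.20 on the log2 scale. WT ran from 18.7 to 25.0 CPM with a median of 23.0, and p16KO from 22.6 to 34.1 with a median of 24.9. The AppNLGF libraries held 21.5, 22.8, 27.0, 24.8 and 20.2 CPM, and AppNLGF_p16KO ran from 21.2 to 31.2 with a median of 24.4. The 3 highest libraries all lacked p16 (p16KO 9 at 34.1, p16KO 12 at 32.3 and AppNLGF_p16KO 21 at 31.2), and the remaining ones overlapped with the groups that have p16. All 6 p16KO libraries lay above the WT mean, with a difference of 0.26 ± 0.11 (adjusted p = 0.230), and 5 of 6 AppNLGF_p16KO libraries lay above the AppNLGF mean, with 0.13 ± 0.11 (adjusted p = 0.508). The average p16 effect of 0.19 ± 0.08 (adjusted p = 0.0902) did not pass. Once length and GC trends were removed it was 0.21 (adjusted p = 0.0290), and without library 21 it was 0.16 (adjusted p = 0.170). Bysl overlaps Ccnd3 on the opposite strand, and which strand setting the counting used is not given in the sources used here.

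Cdk4 (ENSMUSG00000006728; plus strand of chromosome 10, 127063534 to 127067920) encodes the cyclin D kinase through which p16 was first identified. WT ran from 40.1 to 48.5 CPM with a median of 44.5, and p16KO from 46.9 to 53.1 with a median of 50.7. The AppNLGF libraries held 46.0, 50.3, 49.6, 43.2 and 43.0 CPM, and AppNLGF_p16KO ran from 45.4 to 56.6 with a median of 52.9. The groups overlapped in part: all 6 p16KO libraries lay above the WT mean of 44.9 CPM, and 5 of 6 AppNLGF_p16KO libraries above the AppNLGF mean of 46.4. The simple differences were 0.15 ± 0.06 (adjusted p = 0.199) and 0.17 ± 0.06 (adjusted p = 0.131), neither of which passed alone. The interaction was 0.01 ± 0.08 (95% interval -0.15 to 0.18). The called average, 11 of 12 libraries above their control mean, was lost when AppNLGF library 16 was left out (0.14, adjusted p = 0.0566). Its 95% interval was 0.08 to 0.24. Taking out length and GC trends left 0.10 (adjusted p = 0.0408). The App effect was 0.04 ± 0.04. Leaving out library 23, the lowest of the AppNLGF_p16KO group, gave 0.20 (adjusted p = 0.0168) for AppNLGF_p16KO minus AppNLGF. Tspan31 overlaps Cdk4 on the opposite strand.

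Cdk6 (ENSMUSG00000040274; plus strand of chromosome 5, 3341485 to 3531008) encodes the other cyclin D kinase and was counted far less deeply, with 206 to 374 reads per library. Its group means were 5.01 ± 0.793 CPM in WT, 4.98 ± 0.487 in p16KO, 5.51 ± 0.501 in AppNLGF and 4.96 ± 0.966 in AppNLGF_p16KO. The widest group was AppNLGF_p16KO, from 3.59 CPM in library 21 to 6.29 in library 18, and all 4 overlapped. The average p16 effect was -0.08 ± 0.09 (95% interval -0.25 to 0.09), which turned to 0.13 after removal of length and GC trends, and neither value was called. Whether Cdk4 and Cdk6 differed in their response was not tested. The shares of Cdk6 within the kinase total were 2.55% in WT, 2.26% in p16KO, 2.698% in AppNLGF and 2.19% in AppNLGF_p16KO.

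**Figure D3:**
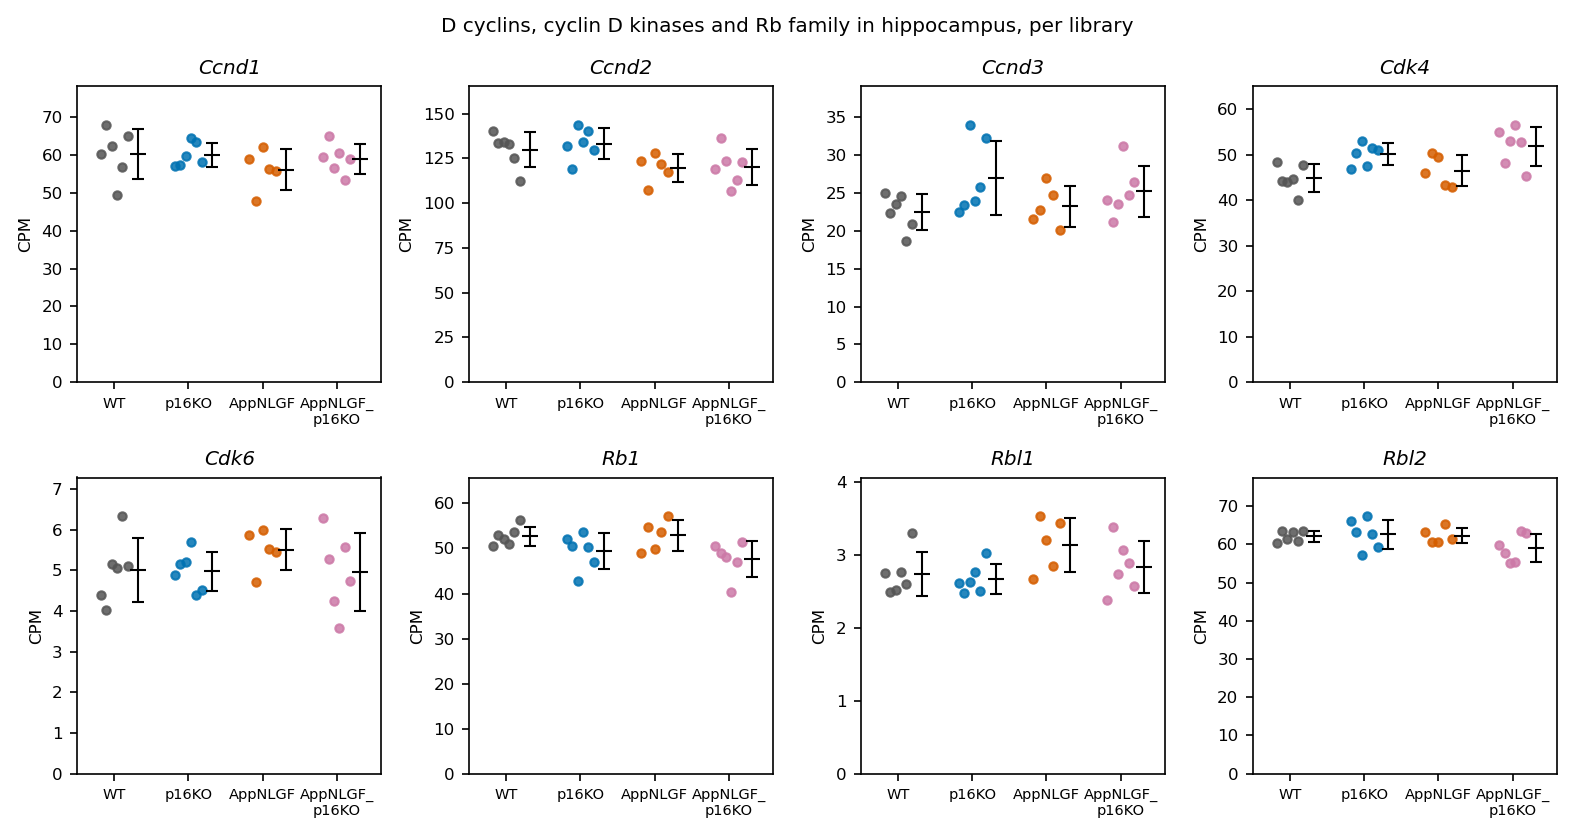
CPM (vertical axes, each from 0) of the 8 genes in each of the 23 libraries by genotype, with mean and SD in black beside the points. The p16KO and AppNLGF_p16KO points of Cdk4 sit above most points of their controls, 3 libraries without p16 stand high for Ccnd3, and the groups of the other genes overlap widely.

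Rb1 (ENSMUSG00000022105; minus strand of chromosome 14, 73183673 to 73325822) encodes the retinoblastoma protein. WT ran from 50.5 to 56.3 CPM with a median of 52.5, and p16KO from 42.8 to 53.7 with a median of 50.4. The AppNLGF libraries held 49.0, 54.7, 49.8, 53.7 and 57.2 CPM, and AppNLGF_p16KO ran from 40.4 to 51.5 with a median of 48.5. Libraries 21 (40.4 CPM) and 9 (42.8 CPM) were lowest, both without p16 and both among the 3 highest for Ccnd3. All 6 AppNLGF_p16KO libraries lay below the AppNLGF mean of 52.9 CPM, though the groups overlapped, with a difference of -0.14 ± 0.06 (adjusted p = 0.180). In p16KO minus WT the difference was -0.10 ± 0.06 (adjusted p = 0.412). The average, -0.12 ± 0.04, had an adjusted p of 0.0644 and was not called. It was called by DESeq2 (adjusted p = 0.0398) and came to -0.06 (adjusted p = 0.220) once length and GC trends were taken out. The App effect on Rb1 was -0.03 ± 0.04. Rcbtb2 and Lpar6 overlap Rb1 on the opposite strand.

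Rbl2 (ENSMUSG00000031666; plus strand of chromosome 8, 91070057 to 91123844) encodes p130, the pocket protein that prevails in resting cells. It was the steadiest member, with a within-group SD of 0.07 on the log2 scale and group means of 62.1 ± 1.39, 62.6 ± 3.88, 62.3 ± 2.03 and 59.1 ± 3.65 CPM in WT, p16KO, AppNLGF and AppNLGF_p16KO. The groups overlapped. Its average p16 effect was -0.03 ± 0.03 and its average App effect -0.05 ± 0.03, with 95% intervals reaching no further than -0.11. Aktip overlaps Rbl2 on the opposite strand.

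Rbl1 (ENSMUSG00000027641; minus strand of chromosome 2, 157145893 to 157204534) encodes p107, a pocket protein gene that E2F factors are known to control. With 119 to 193 reads per library it was the least counted member. WT ran from 2.49 to 3.30 CPM with a median of 2.68, and p16KO from 2.49 to 3.02 with a median of 2.62. The AppNLGF libraries held 2.68, 3.54, 3.21, 2.85 and 3.44 CPM, and AppNLGF_p16KO ran from 2.39 to 3.39 with a median of 2.82. The AppNLGF mean was the highest, at 3.14 ± 0.371 CPM against 2.74 ± 0.298 in WT, with 4 of 5 libraries above the WT mean, and the groups overlapped. The difference of 0.18 ± 0.11 was not called (adjusted p = 0.689), nor was the average App effect of 0.14 ± 0.08 (adjusted p = 0.554). The average p16 effect was -0.09 ± 0.08.

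The promoter of Rbl1 is shown because it alone among the members' promoters at hand held letters of the E2F motif. RefSeq promoters (GRCm38.p6, 250 bases before to 50 after the start) were at hand for 5 of the 8 members, and were searched on both strands for TTTGGCGC, TTTCCCGC, TTTCGCGC and TTTGCCGC, spellings that overlap each other in their letters. Of 32851 promoters 744 (2.26%) held at least 1 of them. Those of Ccnd3, Cdk4, Cdk6 and Rbl2 held none, and Rbl1 held 1, from 18 to 11 bases before the start. The gene whose deviations were most like those of Rbl1, Ezh2, also held 1, just after its start, and is printed for comparison. Promoters were at hand for 20 of the 24 genes most alike the members, and 3 held the letters: Ezh2, Lrp10 (alike Ccnd3) and Msh3 (alike Rb1). Rpa3 and Rasl10a, next after Ezh2 in likeness to Rbl1, held none. Both lines give the 80 bases before and 20 after the start, on the minus strand and 5′ to 3′, with the matching letters in capitals, at chr2:157204515-157204614 and chr6:47595011-47595110.
Rbl1: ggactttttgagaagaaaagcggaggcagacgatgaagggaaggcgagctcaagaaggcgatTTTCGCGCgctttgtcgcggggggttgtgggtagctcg
Ezh2: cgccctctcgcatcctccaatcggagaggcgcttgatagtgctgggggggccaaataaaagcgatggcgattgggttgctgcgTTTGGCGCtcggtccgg
These matches describe letters only, and no binding was measured.

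No member's response to p16 loss was shown to depend on App. The interaction called 0 members and 0% of all genes with edgeR, with 0 members and 1021 genes (5.26%) at an unadjusted p under 0.05, and DESeq2 called 1 gene, which was no member. Interaction estimates ran from -0.13 for Ccnd3 to 0.09 for Ccnd1, with SE from 0.07 for Rbl2 to 0.17 for Cdk6. Of the 8 estimates, 2 were above 0 (Ccnd1 and Cdk4). The median of the members was -0.06 and that of all genes tested 0.004.

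The members also varied between mice of 1 genotype. Pearson's r was taken over the 23 libraries for all 28 pairs of members, on log2 CPM after subtracting each group's mean, with 100000 permutations within groups and Benjamini-Hochberg adjustment over the 28 pairs. Ccnd3 and Rb1 ran opposite to each other (r = -0.74, permutation p = 0.00074, adjusted p = 0.0207; Spearman's rho = -0.67, adjusted p = 0.0487), and this was the 1 pair that passed. Without the 2 libraries farthest from the median of Ccnd3, r was -0.57, and without library 21 it was -0.68 (adjusted p = 0.138). After removal of length and GC trends r was -0.55 (adjusted p = 0.266). The call held neither without library 21 nor once those trends were taken out. Library 21 was the only library left out alone for the pairs. The longest transcript of Ccnd3 has 56.7% GC and that of Rb1 41.2%. Cdk4 against Rb1 (r = -0.52), Cdk4 against Rbl2 (r = -0.49), Ccnd3 against Cdk4 (r = 0.51) and Rb1 against Rbl2 (r = 0.62) had adjusted p between 0.117 and 0.142. After removal of the trends they were -0.35, -0.14, 0.42 and 0.47. All pairs share the libraries' depth and base composition.

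**Figure D4:**
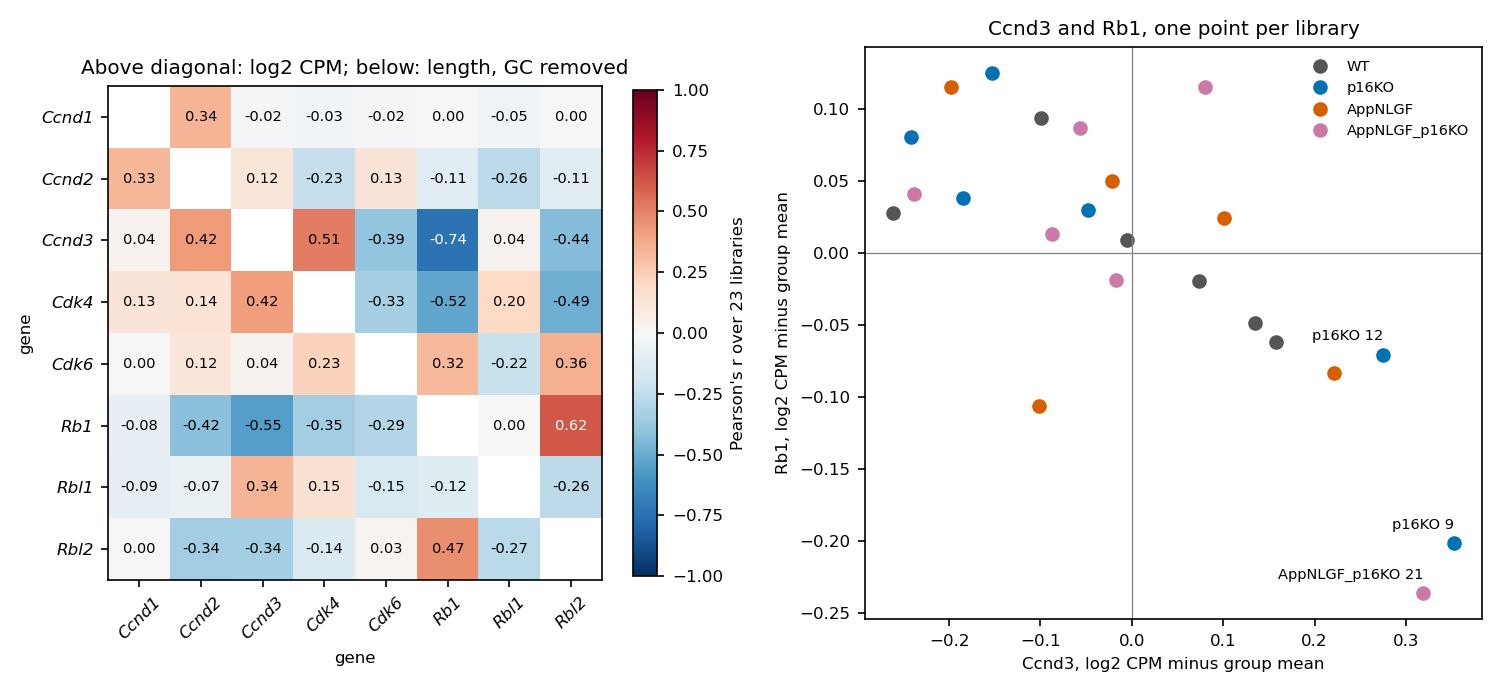
Left, Pearson's r between members over 23 libraries, above the diagonal for log2 CPM and below it with length and GC trends removed; right, deviations of Ccnd3 and Rb1 from their group means, 1 point per library. The strongest value above the diagonal is -0.74 for Ccnd3 and Rb1, which is -0.55 below it, and AppNLGF_p16KO 21 and p16KO 9 lie farthest to the lower right.

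The genes whose deviations were most like each member's, among 13471 genes with a mean of at least 1 CPM, are given as a description over the same 23 libraries. Length and GC trends were not removed for these r values. Cdk4 was most like Rplp2 (r = 0.90), Rplp0 (r = 0.89) and Pdxp (r = 0.89). The first pair encodes stalk proteins of the ribosome, and the third a pyridoxal phosphate phosphatase. On average, Rplp2 rose with p16 loss by 0.22 ± 0.04 (adjusted p = 0.00602), Rplp0 by 0.23 ± 0.05 (adjusted p = 0.0111) and Pdxp by 0.20 ± 0.05 (adjusted p = 0.0199). That contrast called 13.0% of all genes. Ccnd3 was most like Syngr2 (r = 0.90), followed by Pcbp4 and Lrp10. Rb1 was most like Msh3 (r = 0.88), a mismatch repair gene, followed by Dnttip2 and Top2b. Ccnd2 was most like Dpyd (r = 0.76), followed by Grk3 and Mapk1ip1l. Cdk6 was most like Zfp951 (r = 0.78), followed by Cd2ap and Cenpu, and Rbl2 most like Mtcp1 (r = 0.77), followed by Zfp595 and Zfp125. Ccnd1 with Plag1 (r = 0.69) and Rbl1 with Ezh2 (r = 0.70) had the lowest best match. Zfp772 and Ripor2 came next for Ccnd1. Rpa3, a subunit of the single-strand DNA binding complex, came second for Rbl1 (r = 0.69), followed by Rasl10a. Genes alike other members were also called in the average p16 effect. Pcbp4 rose by 0.19 ± 0.06 (adjusted p = 0.0369) and Rasl10a by 0.34 ± 0.07 (adjusted p = 0.00792). Cd2ap fell by 0.35 ± 0.05 (adjusted p = 0.00224). The remaining alike genes were not called there.

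The other genes of the pathway, 75 in 6 lists of which 73 were tested, gave 0 calls in the 4 simple contrasts and in the interaction. The simple contrasts called 0.0309% to 0.319% of all genes, and the interaction 0%. In the average p16 effect 7 of 73 were called, 6 higher and 1 lower, against 13.0% of all genes, and the median of the lists was 0.04 against 0.004 for all genes tested. The test of any difference among the 4 genotypes called 2 of 73, Cdk5 and Pcna, against 3.53% of all genes. In the average App effect 0 were called, against 0.793% of all genes. Among upstream inhibitors, 2 of 6 tested rose with p16 loss on average: Cdkn2b, which encodes p15 and neighbours Cdkn2a, by 0.57 ± 0.16 (adjusted p = 0.0272), and Cdkn2d, which encodes p19 of the same Ink4 family, by 0.22 ± 0.05 (adjusted p = 0.0165). Cdkn2b stood at 0.536 ± 0.143 CPM in WT, 0.828 ± 0.3002 in p16KO, 0.734 ± 0.154 in AppNLGF and 1.04 ± 0.202 in AppNLGF_p16KO. After removal of length and GC trends both missed the threshold, at 0.47 (adjusted p = 0.0551) and 0.12 (adjusted p = 0.0603). Leaving out library 9, 12 or 21 also ended the call of Cdkn2b. Cdkn1a, Cdkn1b, Cdkn1c and Cdkn2c were not called.

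Of 10 E2F and DP factors and 8 genes of the DREAM and MuvB complex, which the pocket proteins work through, 0 were called in any contrast. The average p16 effect called 13.0% of all genes, the test of any difference 3.53% and every other contrast a smaller share. Those with the most counts were Tfdp2, which encodes a DP partner of E2F factors, and Rbbp4, a histone-binding subunit of MuvB. Tfdp2 stood at 58.8 ± 4.39 CPM in WT, 59.6 ± 4.43 in p16KO, 56.3 ± 2.72 in AppNLGF and 55.6 ± 3.23 in AppNLGF_p16KO. Rbbp4 stood at 150.5 ± 9.11, 157.3 ± 6.31, 144.1 ± 10.3 and 162.0 ± 16.9 CPM in the same order (average p16 effect 0.12 ± 0.04, adjusted p = 0.0736). Of 17 tested E2F target genes of DNA replication, 1 was called in the average p16 effect, against 13.0% of all genes. This was Pcna, the sliding clamp of DNA polymerases, which rose by 0.24 ± 0.05 (adjusted p = 0.00709). Pcna stood at 20.4 ± 1.75 CPM in WT, 23.8 ± 0.871 in p16KO, 20.3 ± 0.926 in AppNLGF and 24.3 ± 2.51 in AppNLGF_p16KO, and was 0.15 after removal of length and GC trends (adjusted p = 0.0222). Of 15 later cyclins and kinases 1 was called in that contrast, against the same 13.0%. This was Cdk5, a kinase of neurons that needs no cyclin, which rose by 0.17 ± 0.04 (adjusted p = 0.0117). It kept its call under all 33 alternatives, as did Pcna.

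Of 17 regulators of D cyclins and of Rb, 3 were called in the average p16 effect, 2 higher and 1 lower, beside 13.0% of all genes. Fbxo31, an F-box protein that marks cyclin D1 for destruction, rose by 0.14 ± 0.04 (adjusted p = 0.0261). Ppp1ca, a phosphatase subunit that can dephosphorylate Rb, rose by 0.20 ± 0.05 (adjusted p = 0.0148) and was 0.11 after removal of those trends (adjusted p = 0.0722). Arid4a, which encodes an Rb-binding protein, fell by 0.34 ± 0.11 (adjusted p = 0.0435), a call held under 12 of 33 alternatives. The call of Fbxo31 ended without a count filter and without WT library 5, p16KO library 9, or AppNLGF library 16 or 17. The list's median was -0.01, with 8 of 17 genes above 0.

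Of 66 cell-type markers, 4 were called in the average p16 effect in which Cdk4 rose, a smaller share than the 13.0% of all genes called there: Mpped1 (CA1) and Tmem119 (microglia) were higher, Map2 (neurons) and Flt1 (endothelium) lower. These were 1 of 4 neuronal, 1 of 3 CA1, 1 of 5 microglial and 1 of 4 endothelial markers. Estimates above 0 were found for 1 of the 4 neuronal, 2 of the 3 CA1, 4 of the 5 microglial and 2 of the 4 endothelial markers. Of 33 alternatives, Tmem119 kept its call in 26 (without library 21 and after removal of length and GC trends it was not called), Mpped1 in 30, Map2 in 31 and Flt1 in all. In the order WT, p16KO, AppNLGF and AppNLGF_p16KO, the neuronal markers summed to 5162 to 6224, 4837 to 5439, 5094 to 6088 and 4652 to 5725 CPM. The microglial sum was 290.8 to 333.8, 316.4 to 342.6, 355.8 to 419.8 and 379.8 to 418.6 CPM. The CA1 sum was 517.2 to 620.5, 564.8 to 629.1, 548.9 to 583.8 and 576.4 to 667.1 CPM, and the endothelial sum 94.6 to 117.8, 86.6 to 127.0, 106.1 to 125.1 and 94.8 to 117.0 CPM. Their part in the Cdk4 difference was not tested. With the App knock-in, Cst7, Clec7a and Itgax, markers of microglia around plaques, rose by 5.08, 2.80 and 2.71 on the log2 scale on average. That average App effect called 0 of the 8 members and 0.793% of all genes. The sum of neural progenitor and neuroblast markers ran from 107.9 to 152.4 CPM over all libraries. Of these 5 markers 0 were called in either average, against 13.0% of all genes for p16 loss and 0.793% for the App knock-in. No marker was at 0 in any library.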

How the data were processed

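The deposited values were raw counts of reads per gene, which the authors made from stranded poly-A libraries (50-base single reads) by trimming with cutadapt 4.2, removing ribosomal reads with Bowtie2 2.3.5 and aligning uniquely with STAR 2.7.10b to GRCm38, per the submitters' processing notes and the labels. The strand setting of the counting is not given in the sources used here. No normalisation had been applied.

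CPM are counts per 1000000 counts of a library. Genes were tested in R 4.3.3 with edgeR 4.0.16 (TMM, filterByExpr with a minimum of 10, robust quasi-likelihood F test, 1 model of the 4 genotypes over 23 libraries, two-sided), with intervals of 1.96 SE. DESeq2 1.42.0, sva 3.50.0, other filters, omission of libraries and other settings were alternatives. Library 21 alone lay past the distance limit. Leaving it out and leaving out libraries past that limit were therefore the same fit, counted separately in totals of alternatives. Permutation tests used SciPy 1.17.1. Exon lengths came from GENCODE M21, in which all 8 members have the deposited coordinates. Only the edgeR and DESeq2 procedures were tested on simulated counts with known changes, and only for p16KO minus WT. By rule the text names the 8 members, Cdkn2a, the 3 genes most alike each member and, of the fixed pathway lists, the called genes or, where there are none, the most counted one. Uncalled inhibitors and markers are named beside them. The members and lists were chosen with earlier results of these data known. Libraries carried no molecular identifiers, so statements on depth cover counting error only. Each p-value sets a difference or a correlation against the spread between mice.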

Additional observations from a re-analysis of the deposited data

Results flagged for a closer look

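Rbl1 in WT library 6 was the highest of its group, at 3.30 CPM, and its gap to the next library took up 0.655 of the group's range, past the 95% critical value of Dixon's test for 6 values. This was 1 of 32 groups checked (8 members in 4 genotypes), and chance alone marks about 1 group in 20.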

How the results depend on the processing

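The average p16 effect called 1 member and 13.0% of all genes. It called 2 members under DESeq2 (17.0% of all genes), 2 with 1 surrogate variable (15.9%) and 2 with length and GC trends removed (12.3%). Removal of those trends was an alternative chosen after seeing the data. As single libraries were left out, the count of members ran from 0 (without AppNLGF library 16) to 2. It was 2 without WT library 1, p16KO library 10 or AppNLGF_p16KO library 23. The counts for AppNLGF_p16KO minus AppNLGF and for any difference ran from 0 to 1, and both were 1 without library 23. For any difference the count was also 1 under DESeq2, which called 11.4% of all genes there. The number of correlated pairs fell from 1 to 0 without library 21 and to 0 with length and GC trends removed. The permutation p for Cdkn2a in p16KO against WT ran from 0.0173 to 0.113. Over all genes, calls in p16KO minus WT numbered 60, but 470 under DESeq2, 356 in a fit of those groups alone, 189 without library 21 and 28 with the trends removed. Calls in the average p16 effect numbered 2522, but 1364 without a count filter and 1410 without library 21. They numbered 3308 under DESeq2, 3093 with 1 surrogate variable and 2842 with the level of Xist as covariate. The share that rose among the 2522 was 59.0%, against 51.0% of the calls under DESeq2 and 70.1% with the trends removed. No paired analysis was possible because library numbers run from 1 to 23 and none is shared between groups.

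Some uncalled fold changes changed sign. With length and GC trends removed, p16KO minus WT was 0.0066 for Ccnd1, 0.155 for Cdk6 and 0.0427 for Rbl1. AppNLGF minus WT was then -0.02 for Ccnd3, -0.0102 for Cdk4, 0.0483 for Rb1 and 0.0223 for Rbl2. For Cdk6 AppNLGF_p16KO minus AppNLGF went from -0.14 to 0.0967, and AppNLGF_p16KO minus p16KO was 0.095. For the average p16 effect it was 0.126 for Cdk6 and 0.0271 for Rbl2, and the average App effect 0.00662 for Rb1. With 15 reads asked of 90% of libraries, AppNLGF minus WT was 0.00248 for Rb1 and 0.00424 for Rbl2. Without library 21, AppNLGF_p16KO minus p16KO was 0.0727 for Cdk6, and the interaction was 0.0175 for Ccnd2, -0.0155 for Cdk4 and 0.00295 for Rb1.

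Leaving out single libraries moved p16KO minus WT from -0.0643 to 0.0273 for Ccnd1, -0.0147 to 0.0631 for Ccnd2, -0.0708 to 0.0677 for Cdk6, -0.0809 to 0.0107 for Rbl1 and -0.0157 to 0.0333 for Rbl2. It moved AppNLGF minus WT from -0.0248 to 0.0792 for Ccnd3, -0.0392 to 0.0215 for Rb1 and -0.0258 to 0.003 for Rbl2. It moved AppNLGF_p16KO minus AppNLGF from -0.0314 to 0.0485 for Ccnd2 and AppNLGF_p16KO minus p16KO from -0.0826 to 0.0727 for Cdk6. The interaction ran from -0.0589 to 0.0194 for Ccnd2, -0.0208 to 0.0482 for Cdk4 and -0.0796 to 0.00295 for Rb1. The p16 effect averaged over both App backgrounds ran from -0.000405 to 0.0529 for Ccnd1 and -0.00495 to 0.0398 for Ccnd2, and the average App effect from -0.0696 to 0.0039 for Ccnd3. The causes were not tested. Of 1512 fold changes recomputed, 1438 kept direction and call. Depth limits Rbl1 and Cdk6 most, with at most 193 and 374 reads per library.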
